A study of Mus musculus with 9 samples.

Results

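The 10 immediate early genes Egr1, Ier2, Btg2, Dusp1, Fos, Junb, Jun, Nr4a1, Zfp36 and Atf3 were followed in sorted mouse bone marrow cells with altered RUNX1, a transcription factor needed to form blood stem cells. They were chosen by name, with earlier results of these data known. Every probe set annotated to 1 of them was taken, which gave 12 of the 22626 probe sets on the array and 10 of the 12393 measured genes. Btg2 and Jun had 2 probe sets each, and a gene is represented by its brighter probe set unless the other is named. No gene was dropped for a low signal.

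The cells were KSL cells, sorted from bone marrow for c-Kit and Sca-1 and against lineage markers and IL7Ra, a fraction that holds blood stem cells and early progenitors. All mice had a C57BL/6 background, and each of the 3 groups had 3 biological replicates with 1 Affymetrix array each. RUNX1(41-214) mice were studied 4 months after transplantation of cells transduced with a retroviral vector that expresses residues 41 to 214 of RUNX1, the part with the DNA-binding Runt domain. Runx1KO mice were Runx1floxed/floxed MxCre+/- and were studied 3 months after poly IC, which switches on MxCre, a Cre driven by an interferon-responsive promoter that is not limited to blood cells. Control mice were Runx1floxed/floxed MxCre-/- and were also studied 3 months after poly IC, so that they share the floxed alleles and the poly IC with Runx1KO mice. The labels of the RUNX1(41-214) group name no poly IC, and none of the 9 arrays held transplanted cells with an empty vector. The RUNX1(41-214) group was also studied at 4 months, against 3 in the others. The fragment, transduction, transplantation, time and any difference in poly IC or floxed alleles therefore cannot be told apart in its differences from other groups. The labels do not say whether cells of several mice were pooled for a replicate.

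Immediate early genes are transcribed within minutes of a stimulus, without new protein synthesis, because the factors that switch them on (SRF with its ternary complex partners, and CREB) are already present and are activated by kinases such as ERK, p38 and JNK. Some members encode transcription factors: Fos, Jun and Junb are subunits of AP-1, Atf3 is a related stress factor, Egr1 is a zinc finger protein and Nr4a1 is an orphan nuclear receptor. Others shut the response down: Dusp1 dephosphorylates the kinases, Zfp36 (tristetraprolin) speeds the decay of mRNAs with AU-rich elements, and Btg2 restrains division. In mouse stem cells Egr1 is known for holding them quiescent in the marrow. The dissociation and sorting of tissue also switch these genes on.

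The upstream sequences of the members were searched for the sites that this response is known for, and 8 of the 10 members were matched to promoters of RefSeq (build GRCm38.p6), all but Egr1 and Ier2. The 250 bases before the annotated start of 5 of them are printed 5′ to 3′ on the strand of the gene: Fos and Jun because they varied most between arrays, Dusp1 and Btg2 because they hold the full CREB site, and Zfp36 because it holds the SRF site. Capitals mark TGACGTCA and its core TGACG (CREB), the CArG box (SRF), TGNGGT (a loose form of the Runx site, matched in Jun, Dusp1 and Btg2) and TATAAA.
Fos (chr12:85473640-85473889, plus strand): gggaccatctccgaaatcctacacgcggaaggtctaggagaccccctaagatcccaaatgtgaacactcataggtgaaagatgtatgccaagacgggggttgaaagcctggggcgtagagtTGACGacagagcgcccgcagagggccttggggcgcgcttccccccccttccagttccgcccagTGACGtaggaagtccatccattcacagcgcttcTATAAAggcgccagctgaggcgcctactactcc
Jun (chr4:95052223-95052472, minus strand): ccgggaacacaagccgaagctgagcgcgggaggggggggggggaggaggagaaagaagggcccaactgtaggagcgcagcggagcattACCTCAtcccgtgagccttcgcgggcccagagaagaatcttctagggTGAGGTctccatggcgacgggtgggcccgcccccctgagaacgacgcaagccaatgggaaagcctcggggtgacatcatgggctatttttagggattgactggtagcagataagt
Dusp1 (chr17:26508473-26508722, minus strand): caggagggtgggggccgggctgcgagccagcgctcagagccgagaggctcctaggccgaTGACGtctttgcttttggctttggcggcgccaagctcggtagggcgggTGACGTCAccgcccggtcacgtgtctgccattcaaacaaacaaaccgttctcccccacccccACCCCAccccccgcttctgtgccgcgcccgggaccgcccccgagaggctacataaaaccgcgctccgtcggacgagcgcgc
Btg2 (chr1:134079156-134079405, minus strand): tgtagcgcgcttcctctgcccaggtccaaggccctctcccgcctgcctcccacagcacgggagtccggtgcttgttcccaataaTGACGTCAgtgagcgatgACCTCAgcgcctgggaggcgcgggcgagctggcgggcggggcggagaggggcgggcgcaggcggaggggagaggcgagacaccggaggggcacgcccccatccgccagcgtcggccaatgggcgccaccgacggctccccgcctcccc
Zfp36 (chr7:28379229-28379478, minus strand): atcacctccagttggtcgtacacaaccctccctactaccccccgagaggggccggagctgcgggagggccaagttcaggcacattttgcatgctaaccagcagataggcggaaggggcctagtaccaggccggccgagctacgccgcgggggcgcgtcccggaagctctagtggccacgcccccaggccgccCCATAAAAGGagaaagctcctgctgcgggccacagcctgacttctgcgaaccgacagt
Both strands were searched, and the same window of 32851 promoters served for comparison. TGACGTCA stood in Btg2 and Dusp1, 2 of the 8 matched members, and in 1.55% of all promoters. Its core TGACG, which lies inside every TGACGTCA, stood in 6 members (Btg2, Dusp1, Fos, Junb, Nr4a1 and Atf3) and in 17.8% of promoters. Fos held it 129 and 66 bases before its start, and a TATAAA 33 bases before its start. The CArG box stood in Zfp36 alone, 58 bases before its start, and in 1.47% of promoters. TGNGGT was read as TGAGGT in Btg2 and Jun and as TGGGGT in Dusp1, 3 of 8 members against 40.1% of promoters. None of these matches had T or C at the N, as the usual Runx site does. The AP-1 letters TGANTCA were in none of the 8 windows and in 6.75% of promoters. GGGNGGGG (EGR and SP factors) stood in 7 members against 30.8% of promoters, and the ETS letters TTCCGG in Nr4a1 and Zfp36 against 12.0%. These are matches of letters, and no match says only that the letters are not in this window.

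Values are deposited signal intensities, or log2(signal + 16) after quantile normalization, called the log2 signal here. Differences in log2 signal were tested with limma in one fit to all 9 arrays, with Benjamini-Hochberg adjustment over all 12393 genes and a threshold of 0.05, and carry a standard error (SE). The median signal of the arrays ran from 125 to 147, and arrays correlated at 0.976 to 0.992 within groups and 0.968 to 0.986 between groups. Kit and Cd34 were bright in every group, at mean log2 signals of 11.72 and 12.01 in RUNX1(41-214), 11.64 and 11.81 in Runx1KO and 11.15 and 11.78 in control arrays. Flt3, a receptor of early progenitors, was at 10.25, 10.44 and 10.85 in the same groups, and Il7r, the gene of the IL7Ra that the sort selects against, at 5.69 in RUNX1(41-214), 9.52 in Runx1KO and 9.38 in control arrays. Ly6a, the gene of Sca-1, was not analysed here. None of the 5 Runx1 probe sets had a lower mean in arrays labelled Runx1KO than in control arrays: the brightest lay between 11.20 and 11.73 in Runx1KO, against 9.88 to 10.73 in control arrays. Which part of Runx1 was deleted is not given in the sources used here, so these probe sets do not check the deletion. The log2 ratio of 3′ to 5′ Gapdh signal, a sign of RNA quality, was 2.13 in Runx1KO replicate 3 and 1.86 in control replicate 2, and 0.98 to 1.29 on the other 7 arrays. The array with the most extreme members was Runx1KO replicate 1, which was the highest of all 9 for Dusp1, Fos, Jun and Atf3 and the lowest for Nr4a1.

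**Figure D1:**
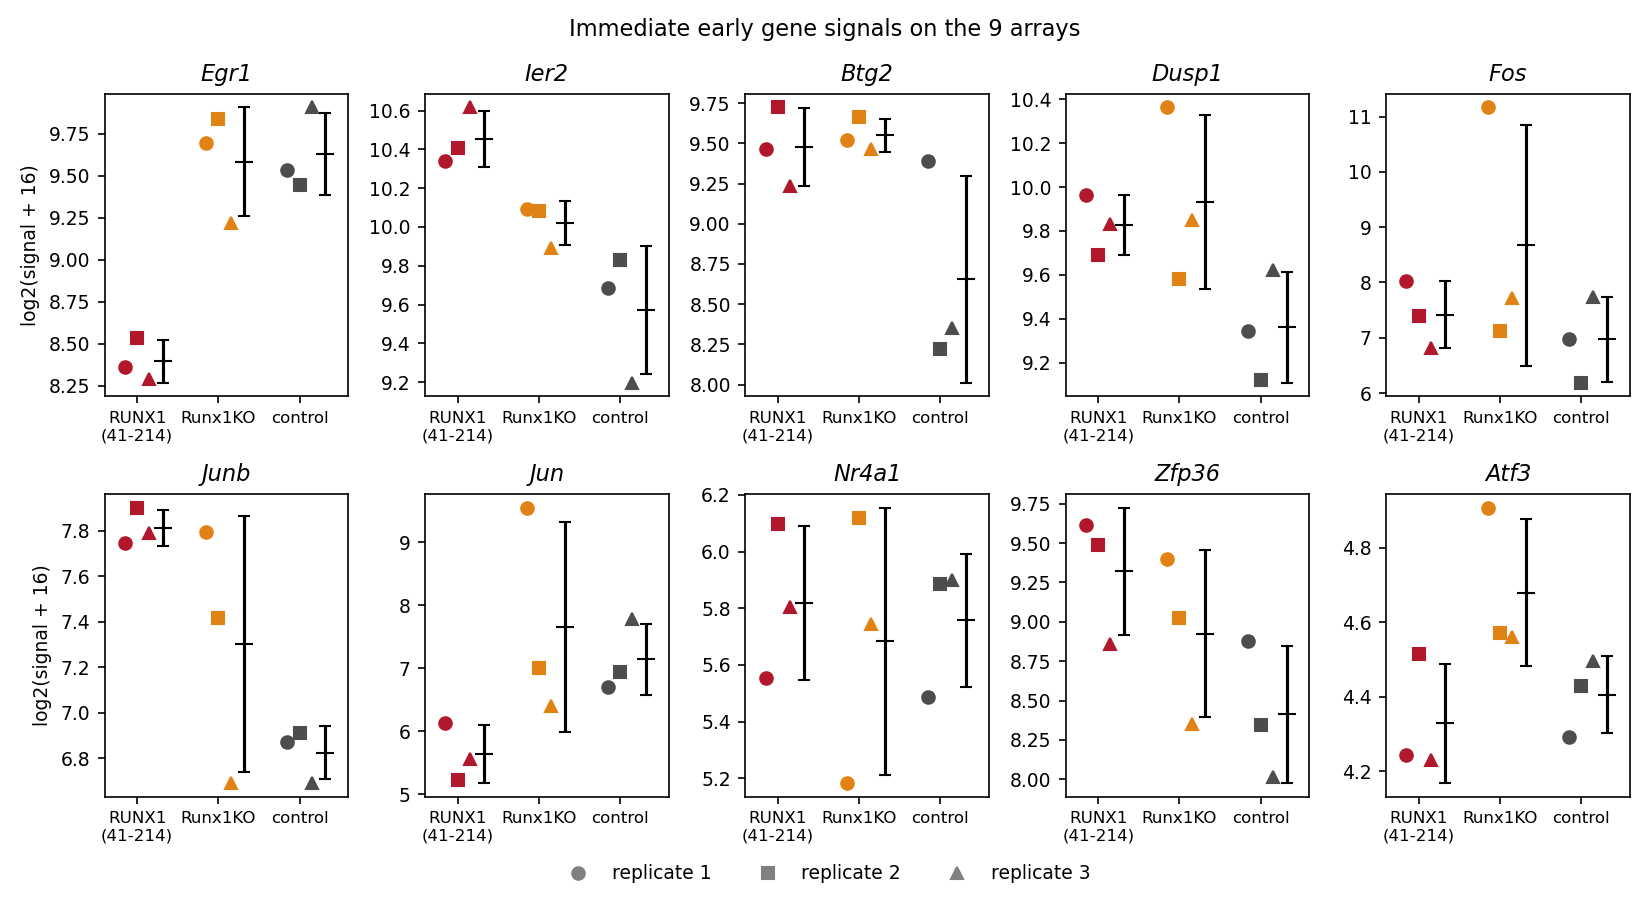
Log2 signal (log2 of signal + 16, quantile normalized) of the 10 immediate early genes on each of the 9 arrays, 1 panel per gene; each symbol is 1 array, its shape the replicate number, and the black bars give the mean ± SD of each group of 3. Egr1 lies below both other groups on all 3 RUNX1(41-214) arrays, and a single Runx1KO array reaches 11.17 for Fos and 9.55 for Jun.

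The comparison of RUNX1(41-214) with control cells asks which genes differ between these groups, which the truncated factor is not alone in setting apart. Of the members, Egr1 fell and Ier2 rose in RUNX1(41-214) cells, and the other 8 did not pass the test. This is 2 of 10 members where 4.28% of all genes passed, 2.56% lower and 1.73% higher. The members' differences went both ways, from -1.50 for Jun to 0.99 for Junb, with a median of 0.45 against 0.02 for all genes.

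Egr1 had deposited signals of 303, 335 and 296 on the RUNX1(41-214) arrays, 843, 944 and 551 on the Runx1KO arrays and 725, 697 and 945 on the control arrays. All 3 RUNX1(41-214) arrays lay below every other array, while Runx1KO and control arrays overlapped. Its log2 signal was 8.39 ± 0.13 in RUNX1(41-214) and 9.63 ± 0.25 in control cells (mean ± SD, n = 3 arrays per group), and the difference was -1.24 ± 0.21 (SE, 95% interval -1.70 to -0.77, limma adjusted p = 0.00613), or 0.425 of the control level. Leaving out any 1 array kept it past the threshold (highest adjusted p = 0.0344).

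Ier2, a nuclear protein named for its immediate early response and otherwise little characterised, had deposited signals of 1289, 1338 and 1533 on the RUNX1(41-214) arrays, 1119, 1116 and 879 on the Runx1KO arrays and 801, 903 and 577 on the control arrays. RUNX1(41-214) arrays were the highest, Runx1KO arrays lay in between without overlapping control arrays by log2 signal, and control replicate 3 was the lowest. The log2 signal was 10.45 ± 0.15 in RUNX1(41-214) and 9.57 ± 0.33 in control cells (mean ± SD, n = 3 arrays per group), and the difference was 0.88 ± 0.19 (SE, 95% interval 0.48 to 1.29, limma adjusted p = 0.0190), or 1.84-fold. Without 1 RUNX1(41-214) array or without control replicate 3 it no longer passed (adjusted p = 0.0552 to 0.0776).

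Junb, the AP-1 subunit that restrains myeloid growth in mice, had deposited signals of 188, 206 and 205 on the RUNX1(41-214) arrays, 216, 159 and 87.35 on the Runx1KO arrays and 107, 107 and 92.5 on the control arrays. Each RUNX1(41-214) array was above each control array, but the difference of 0.99 ± 0.27 (SE) missed the threshold (limma adjusted p = 0.0647). The Runx1KO arrays enter this comparison through the shared spread alone, and with the difference still at 0.99 it passed without Runx1KO replicate 1 (adjusted p = 0.0471) or replicate 3 (adjusted p = 0.0207).

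Jun went the other way. Its brighter probe set 1417409_at had deposited signals of 49.4, 21.5 and 31.25 on the RUNX1(41-214) arrays, 758, 114 and 68.95 on the Runx1KO arrays and 91.7, 110.0 and 210.2 on the control arrays. RUNX1(41-214) arrays were below all others, and the difference from control was -1.50 ± 0.64 (SE, limma adjusted p = 0.279). On the other probe set, 1448694_at, RUNX1(41-214) arrays had signals of 55.5, 31.3 and 36.2, Runx1KO arrays 391, 99.6 and 81.8 and control arrays 65.8, 53.9 and 126. There RUNX1(41-214) and control arrays overlapped, with a difference of -0.63 ± 0.47 (SE, limma adjusted p = 0.623 over 20380 probe sets). Without Runx1KO replicate 1 the difference of the brighter probe set was -1.50 and passed (adjusted p = 0.0358).

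The members that end the response were higher in mean in RUNX1(41-214) than in control cells, but none passed. Zfp36 had deposited signals of 770.3, 683 and 449.6 on the RUNX1(41-214) arrays, 679.7, 528 and 299 on the Runx1KO arrays and 455, 317 and 249 on the control arrays. Its RUNX1(41-214) and control arrays overlapped. Its difference was 0.91 ± 0.32 (SE, limma adjusted p = 0.168). Dusp1 had deposited signals of 982, 792 and 887 on the RUNX1(41-214) arrays, 1352, 785 and 855 on the Runx1KO arrays and 630.4, 555 and 770.3 on the control arrays. All RUNX1(41-214) arrays were above all control arrays, but the difference was 0.47 ± 0.22 (SE, limma adjusted p = 0.342). Btg2 on probe set 1448272_at had deposited signals of 686, 809.8 and 584 on the RUNX1(41-214) arrays, 744, 834 and 653 on the Runx1KO arrays and 652, 288 and 316 on the control arrays. Control replicate 1 stood 0.74 above the mean of its group on the log2 scale and above 1 RUNX1(41-214) array, and the difference was 0.82 ± 0.28 (SE, limma adjusted p = 0.159). Without that array it was 1.19 and passed (adjusted p = 0.0125). The dimmer Btg2 probe set 1416250_at differed by 0.95 ± 0.48 (SE, limma adjusted p = 0.411).

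Fos, Nr4a1 and Atf3 showed no difference between RUNX1(41-214) and control cells that the arrays could separate. Fos had deposited signals of 234, 139 and 97.05 on the RUNX1(41-214) arrays, 2354, 126 and 190.5 on the Runx1KO arrays and 116, 59.9 and 204 on the control arrays. The value of 2354 was 10.05 times that of the next highest array, and the groups otherwise overlapped. The difference of RUNX1(41-214) from control was 0.44 ± 0.83 (SE, limma adjusted p = 0.870). Nr4a1 ran from 28.6 to 49.8 in RUNX1(41-214), from 20.1 to 54.2 in Runx1KO and from 28.9 to 46.2 in control arrays, and its log2 signal differed by 0.06 ± 0.25 (SE). Atf3 ran from 2.88 to 7.06 in RUNX1(41-214), from 7.21 to 13.9 in Runx1KO and from 3.52 to 6.74 in control arrays, all below the offset of 16, so that its folds are understated. Its difference was -0.08 ± 0.14 (SE).

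Across this comparison RUNX1(41-214) and control arrays were fully separate for 5 of the 10 members and for 20.3% of all genes. Ier2, Dusp1 and Junb were on the higher side (10% of all genes) and Egr1 and Jun on the lower side (10.2%). An unadjusted p under 0.05 was reached by 6 members and by 15.5% of all genes. With Runx1KO replicate 1 and control replicate 3 left out, the 2 arrays of highest signal for the heat shock gene Hspa1b and an alternative chosen after seeing the data, Egr1 differed by -1.10 (limma adjusted p = 0.0581) and Ier2 by 0.69 (adjusted p = 0.0900), and 0 members passed; over all genes 280 passed in place of 531.

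**Figure D2:**
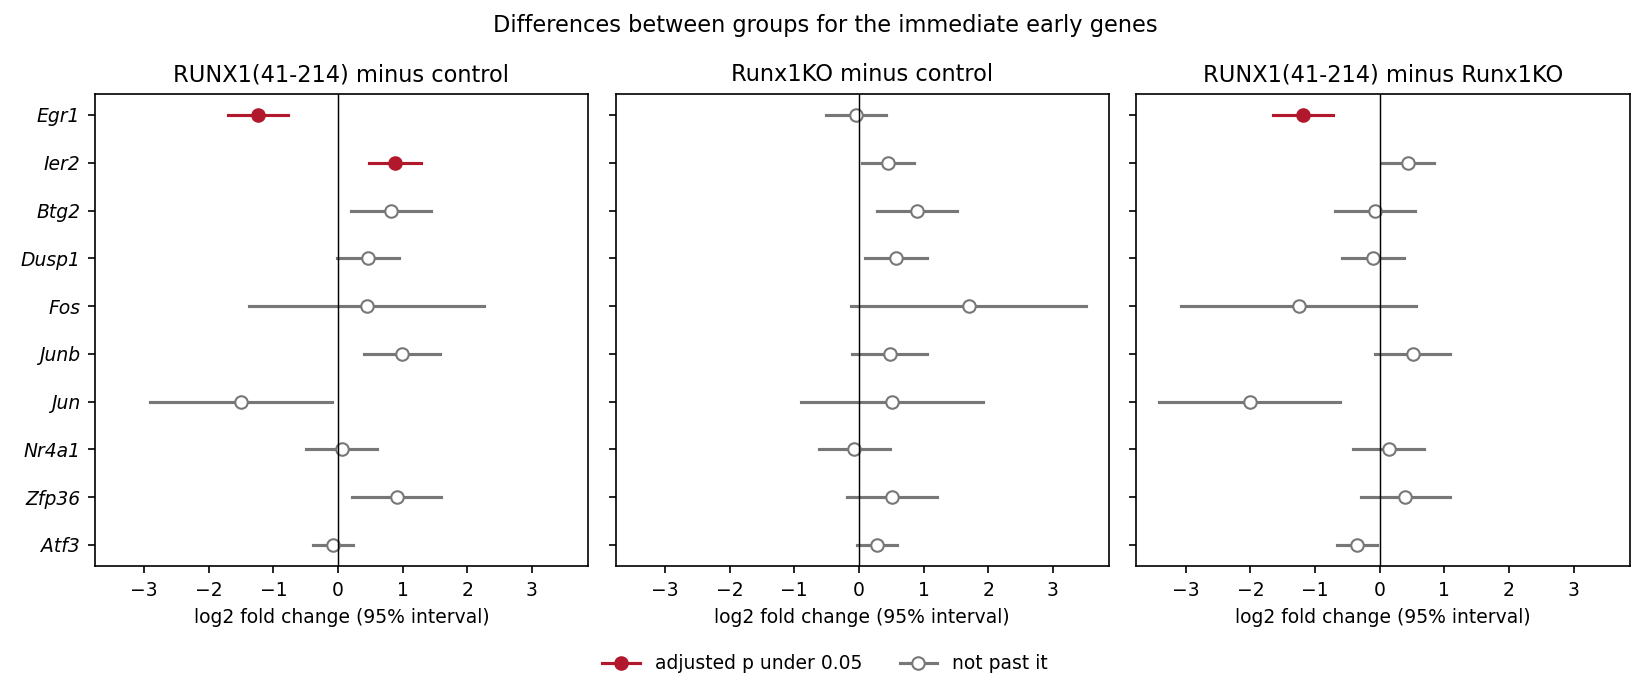
Difference in log2 signal of the 10 members in the 3 comparisons, with 95% intervals from the limma fit (3 arrays a group); filled points passed the threshold of 0.05 on the adjusted p. Egr1 lies at -1.24 and Ier2 at 0.88 for RUNX1(41-214) minus control, and the intervals of Fos and Jun are the widest.

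The direct comparison of RUNX1(41-214) with Runx1KO cells tests whether the members differ between these groups, which differ in more than the alteration of Runx1. Egr1 again was lower in RUNX1(41-214) cells, at 8.39 ± 0.13 against 9.58 ± 0.32 in Runx1KO cells (mean log2 signal ± SD, n = 3 arrays per group), and the difference was -1.19 ± 0.21 (SE, 95% interval -1.65 to -0.72, limma adjusted p = 0.0176). It was the only member past the threshold, 1 of 10 where 1.36% of all genes passed and 1.06% passed as lower. It no longer passed without any 1 of the RUNX1(41-214) arrays or without Runx1KO replicate 1 or 2 (adjusted p = 0.0594 to 0.0868).

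Jun had the widest difference, -2.01 ± 0.64 (SE, limma adjusted p = 0.230), and all RUNX1(41-214) arrays lay below all Runx1KO arrays on both of its probe sets. Atf3 at -0.35 ± 0.14 was also without overlap on the low side, and Ier2 at 0.43 ± 0.19 on the high side (SE, limma adjusted p = 0.387 and 0.426). With Egr1 these made 4 members without overlap, 1 higher and 3 lower, against 18.8% of all genes, of which 9.67% were higher and 9.13% lower. This count includes Atf3, whose gap was narrow and lay below the offset. Its highest deposited signal in RUNX1(41-214) arrays was 7.06, against a lowest of 7.21 in Runx1KO arrays. An unadjusted p under 0.05 was reached by 4 members and by 10.6% of all genes. The other members lay between -1.26 ± 0.83 for Fos and 0.51 ± 0.27 for Junb (SE), Btg2 and Dusp1 at -0.07 and -0.10 with SEs of 0.28 and 0.22. The size of the Jun and Fos differences depended on Runx1KO replicate 1: without it Jun was at -1.06 and Fos at -0.007. The comparisons of Runx1KO and of RUNX1(41-214) with control share the 3 control arrays, so that their values are given side by side and not correlated.

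The comparison of Runx1KO with control cells asks which genes differ after the induced deletion. None of the 10 members passed the limma threshold, where 0.347% of all genes did; 3 members (Btg2, Dusp1 and Ier2) and 7.22% of all genes had an unadjusted p under 0.05. In mean, 8 members were higher in Runx1KO cells and Egr1 and Nr4a1 were lower, with a median difference of 0.49 against -0.004 for all genes. Runx1KO and control arrays were fully separate for Ier2, Btg2 and Atf3, all 3 higher in Runx1KO. The same held for 10.5% of all genes, 5.34% on the higher side. For Atf3 the gap was narrow and lay below the offset. Its lowest deposited signal in Runx1KO arrays was 7.21, against a highest of 6.74 in control arrays. On the dimmer Btg2 probe set 1416250_at these groups overlapped. The difference there was 0.87 ± 0.48 (SE, limma adjusted p = 0.836 over 20380 probe sets).

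Btg2 was nearest to the threshold, at 9.55 ± 0.10 in Runx1KO cells, while control cells had 8.65 ± 0.64 (mean log2 signal ± SD, n = 3 arrays per group), and the difference was 0.90 ± 0.28 (SE, limma adjusted p = 0.331). Dusp1 was at 0.57 ± 0.22 and Ier2 at 0.45 ± 0.19 (SE, limma adjusted p = 0.522 and 0.609). Zfp36 differed by 0.51 ± 0.32 and Junb by 0.48 ± 0.27, while Atf3 differed by 0.27 ± 0.14 (SE). Egr1 did not differ detectably, at -0.05 ± 0.21 (SE, 95% interval -0.51 to 0.42), nor did Nr4a1 at -0.07 ± 0.25 (SE). Fos had the largest difference, 1.70 ± 0.83 (SE, 95% interval -0.12 to 3.52, limma adjusted p = 0.724), and Jun stood at 0.51 ± 0.64 (SE). Both rest on Runx1KO replicate 1: without it Fos was at 0.45 and Jun at -0.44 (adjusted p = 0.923 and 0.902).

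Because handling can switch these genes on, the spread between replicates of 1 group was examined for each member. In Runx1KO replicate 1, Fos stood 2.50 and Jun 1.90 above the mean of its group on the log2 scale. Over the 9 arrays the residual standard deviation of Fos, 1.38, was above that of all 200 genes nearest to it in mean signal, whose median was 0.316. That of Jun, 1.05, was above 199 of its 200. Without Runx1KO replicate 1 the values were 0.650 for Fos (above 192 of 200) and 0.497 for Jun (above 167 of 200). Both Jun probe sets had the same array on top, at 3.61 and 3.10 times the next highest signal.

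The other members varied less on the probe sets that represent them. On the dimmer Btg2 probe set 1416250_at the standard deviation was 0.095 in RUNX1(41-214), 0.856 in Runx1KO and 0.949 in control arrays. Runx1KO replicate 1 was the highest array on that probe set, at 1.685 times the next highest signal. Egr1 and Ier2, the members that passed a test, had residual standard deviations of 0.246 (above 86 of 200 genes of like signal) and 0.219 (above 66 of 200). Zfp36 with 0.461 and Btg2 with 0.400 lay above 171 and 169 of 200, Nr4a1 with 0.343 above 154, Dusp1 with 0.283 above 112, Junb with 0.334 above 102 and Atf3 with 0.158 above 30. The median standard deviation within a group was 0.202 over members in RUNX1(41-214) cells, 0.435 in Runx1KO cells and 0.292 in control cells, against 0.172, 0.217 and 0.242 over all genes.

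**Figure D3:**
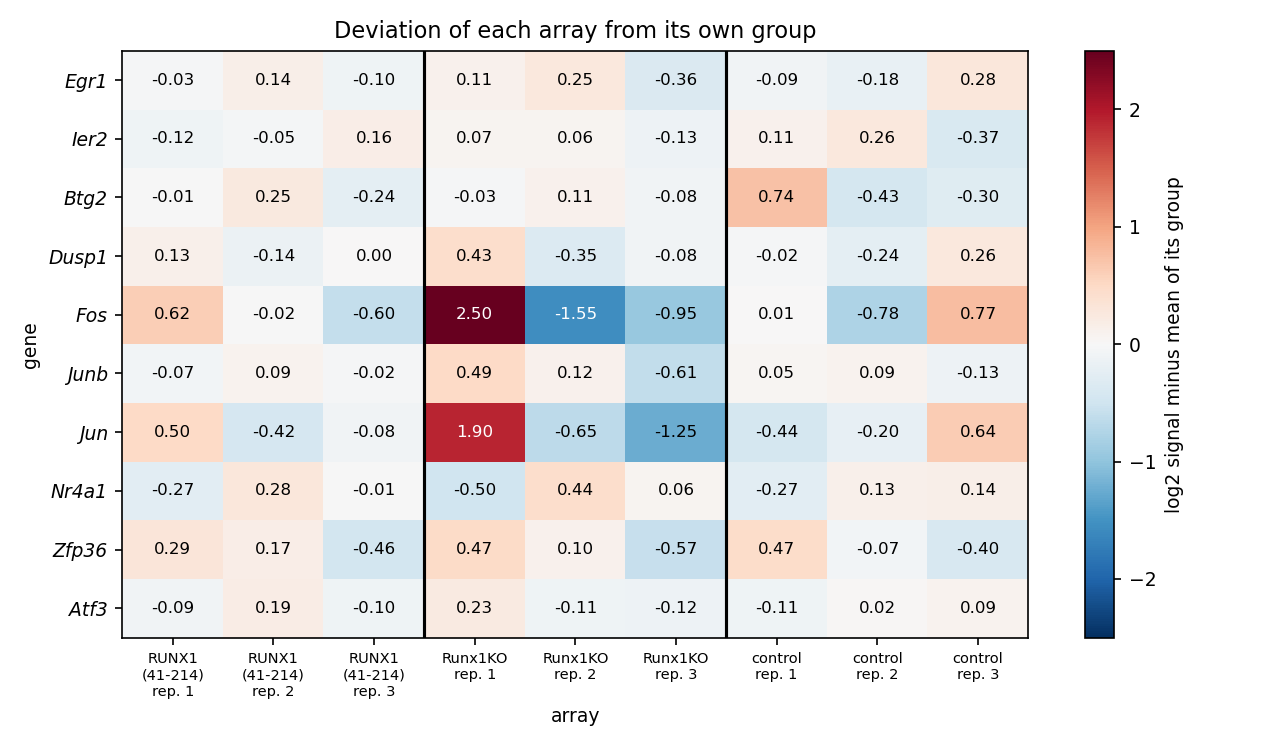
Log2 signal of each member on each array minus the mean of that array's group, as colour and number. Runx1KO replicate 1 carries the highest values, 2.50 for Fos and 1.90 for Jun, which raise the means of its group. Runx1KO replicate 3 is below its group's mean for 9 of the 10 members.

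The deviations did not run the same way for all members. In Runx1KO replicate 1, 8 of 10 members were above the mean of their group, where 43.75% of all genes were, and Nr4a1 was 0.50 below it. The members' mean deviation there was 0.57, led by Fos at 2.50 and Jun at 1.90, with Junb next at 0.49. In Runx1KO replicate 3, 1 member was above the group's mean, against 50.62% of all genes, and the members' mean deviation was -0.41. Deviations within a group cancel out, so the high Fos and Jun of replicate 1 lower the values of the other Runx1KO arrays. Against the mean of all 9 arrays, 5 members were above it in Runx1KO replicate 3, with a mean deviation of -0.12. This array also had the highest Gapdh 3′ to 5′ ratio, whose part in these values was not tested. Over the 45 pairs of members, the correlation of deviations over the 9 arrays ran from -0.75 to 0.93 with a median of 0.25. Jun and Fos followed the mean of the other 9 members most closely (r = 0.83 and 0.78), and Nr4a1 ran against it (r = -0.69). Ier2, and Btg2 on its brighter probe set, did not follow it (r = -0.12 and 0.02). The correlation was not computed for the dimmer Btg2 probe set, whose highest array was Runx1KO replicate 1 and lowest control replicate 2. These correlations describe 9 arrays and are not tested. Fos, Jun and Nr4a1 each had their widest deviation in Runx1KO replicate 1, and no correlation between members was computed without that array.

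Some further genes were chosen after their values were seen, so their values describe Runx1KO replicate 1 and do not test why it stood out. Fosb, a Fos relative of the same response, had a deposited signal of 38.75 in Runx1KO replicate 1, against 57.86 and 54.23 on the other Runx1KO arrays. Jund, the more constantly expressed Jun relative, had 1828 there and 1368 and 965 on the other Runx1KO arrays. The inducible heat shock genes Hspa1a and Hspa1b, near-identical paralogs whose probe sets may read each other, stood out on Runx1KO replicate 1 and control replicate 3. Hspa1b had 126, 114 and 54.5 on the RUNX1(41-214) arrays, 1201, 247 and 135 on the Runx1KO arrays and 169.95, 142 and 2145 on the control arrays. Hspa1a had 105 in Runx1KO replicate 1 and 251 in control replicate 3, and 3.72 to 19.3 on the other 7 arrays. Control replicate 3 had 204 for Fos and 210.2 for Jun, each the highest of the control arrays but far below Runx1KO replicate 1, and it was the highest of all 9 for Egr1 and the lowest of all 9 for Ier2 and Zfp36. The part of heat shock induction in the members' differences was not tested beyond leaving out both arrays.

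**Figure D4:**
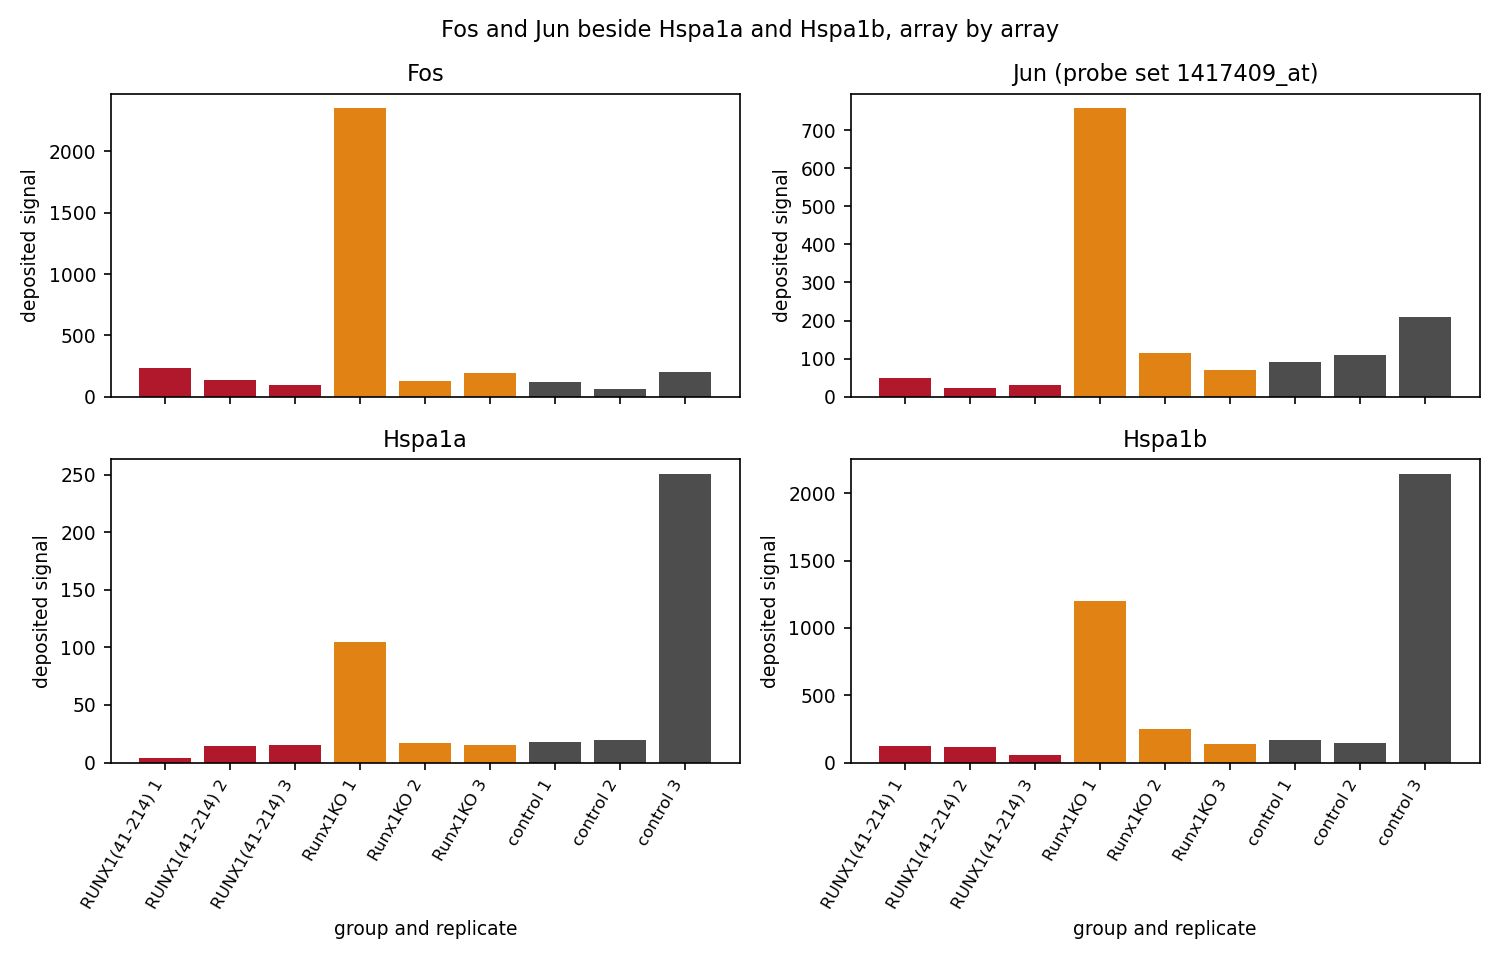
Deposited signal (linear axes from 0) of Fos, Jun, Hspa1a and Hspa1b; each bar is 1 of the 9 arrays, coloured by group. Runx1KO replicate 1 is high for all 4 genes, and control replicate 3 has the highest Hspa1a and Hspa1b, 251 and 2145, with Fos at 204.

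The wider response was read from 4 lists that share some genes. Of 42 measured other immediate early genes (44 listed), 2 rose and 1 fell in RUNX1(41-214) against control cells, with a median difference of 0.06 against 0.02 for all genes. Of all genes 1.73% rose and 2.56% fell in this comparison, which are the shares against which these counts are read. Gadd45g, a growth arrest and stress gene, rose by 1.34 ± 0.24 and Myc, the growth factor-induced transcription factor, by 0.83 ± 0.18, while Gadd45b, a relative of Gadd45g, fell to a difference of -1.38 ± 0.27 (SE, limma adjusted p = 0.00742, 0.0249 and 0.0126). Against Runx1KO cells, 1 of the 42 passed, where 1.36% of all genes did and 1.06% passed as lower. This was Plk2, a stress-induced kinase, lower in RUNX1(41-214) cells with a difference of -1.76 ± 0.23 (SE, limma adjusted p = 0.00308). Between Runx1KO and control cells 0 of 42 passed with limma and 4 had an unadjusted p under 0.05, where 7.22% of all genes did. The lowest p-values were those of Gadd45b at -1.21 ± 0.27 and Plk2 at 1.02 ± 0.23 (SE, limma adjusted p = 0.104 and 0.108). In Runx1KO replicate 1, 18 of these 42 genes and 43.75% of all genes were above the mean of their group, and the 42 had a mean deviation of -0.01.

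None of 22 measured AP-1 partners and relatives of Zfp36 and Btg2 passed in any of the 3 comparisons with limma (24 listed). An unadjusted p under 0.05 was reached by 4 of them in RUNX1(41-214) against control, 1 in RUNX1(41-214) against Runx1KO and 2 in Runx1KO against control cells, where 15.5%, 10.6% and 7.22% of all genes did. These counts do not set the list apart, and the genes named from it are given as values. Btg1, like Btg2 an inhibitor of division, was at 0.65 ± 0.24 in RUNX1(41-214) against control cells, and Zfp36l1, like Zfp36 an mRNA decay factor, at 0.53 ± 0.23 in Runx1KO against control cells (SE, limma adjusted p = 0.193 and 0.660). Beside them, the lowest p-values were those of Ier3 (-0.40), a survival gene, in RUNX1(41-214) against control, of the antioxidant factor Nfe2l2 (-0.44) and of Maf (0.26) in RUNX1(41-214) against Runx1KO and of the AP-1 relative Batf3 (-0.51) in Runx1KO against control cells. Of 30 measured kinases and SRF, ternary complex and CREB factors upstream of the members (40 listed), 0 passed with limma in any comparison, and 3, 2 and 3 had an unadjusted p under 0.05 in the same order of comparisons, against the same shares of all genes. The genes named from this list are likewise given as values. Mrtfa, an actin-regulated partner of SRF, was at -0.76 ± 0.26 in RUNX1(41-214) against Runx1KO and at 0.75 ± 0.26 in Runx1KO against control cells (SE, limma adjusted p = 0.273 and 0.441). The lowest p-values next to it were those of the stress kinases Mapk8 (0.48) and Mapkapk2 (0.40) in RUNX1(41-214) against control, of Creb1 (0.50) in RUNX1(41-214) against Runx1KO and of the ERK pathway inhibitor Spred2 (0.48) in Runx1KO against control cells.

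Of 17 measured heat shock and stress genes (20 listed), 3 fell in RUNX1(41-214) against control cells: Dnajb1 at -0.72 ± 0.13, Hspd1 at -0.39 ± 0.09 and Hsph1 at -0.86 ± 0.21 (SE, limma adjusted p = 0.0102, 0.0282 and 0.0433). Of all genes, 2.56% fell. These encode chaperones or their partners, Hspd1 the mitochondrial one, and 15 of the 17 genes were lower in mean in RUNX1(41-214) cells, with a median of -0.22 against 0.02 for all genes. In the other comparisons 0 of 17 passed with limma and 2 had an unadjusted p under 0.05 in each, where 10.6% and 7.22% of all genes did. These were Hsph1 (-0.53) and Dnajb1 (-0.44) in RUNX1(41-214) against Runx1KO, and Hspd1 (-0.22) and its partner Hspe1 (-0.32) in Runx1KO against control cells. The list's mean deviation from the group mean was highest in control replicate 3 (0.33) and Runx1KO replicate 1 (0.26). Hspa1a and Hspa1b weigh most in both, at 1.96 and 2.50 in the first and 1.23 and 1.72 in the second. The next highest genes were Hsph1 (0.45) and Sqstm1 (0.36), in the same order. On these arrays 12 and 13 of the 17 genes were above their group's mean, against 51.59% and 43.75% of all genes.

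**Figure D5:**
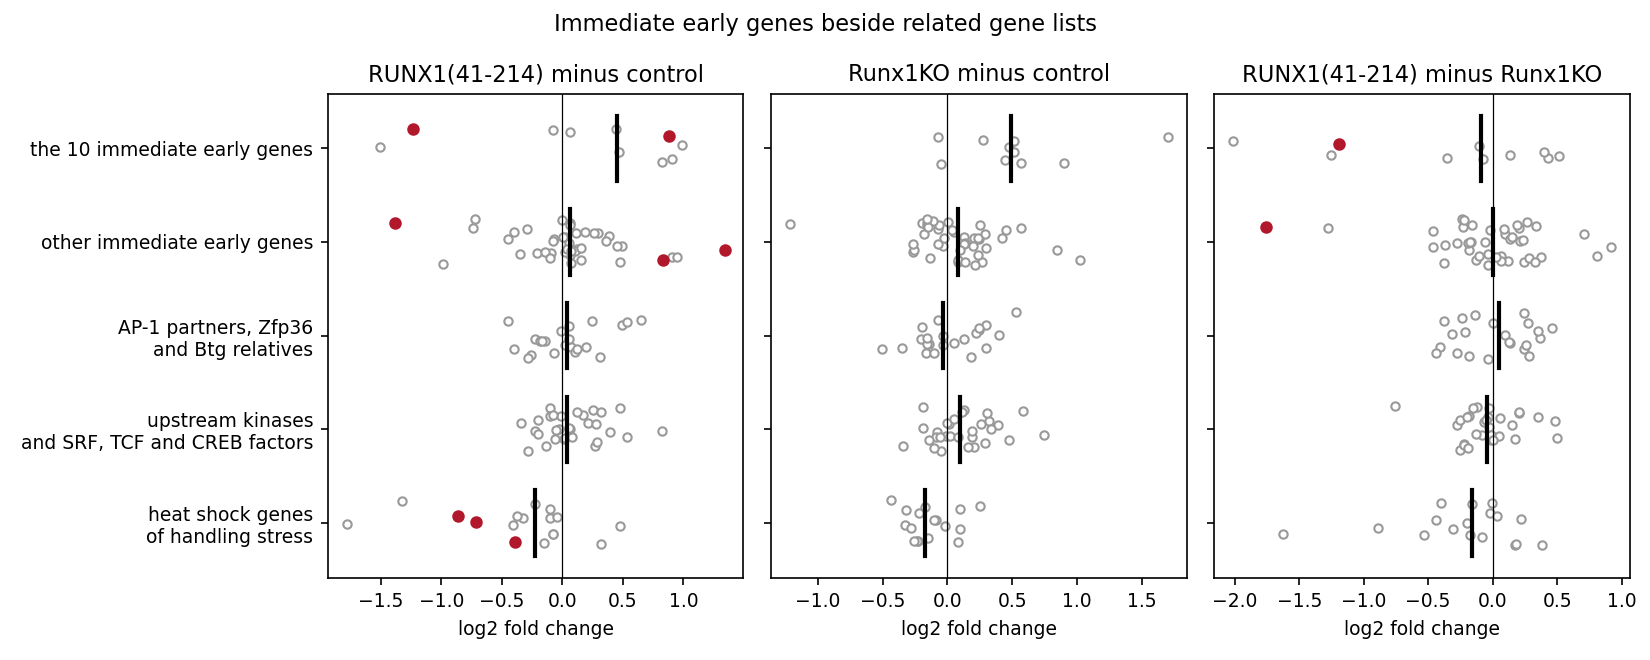
Difference in log2 signal of the members and of each gene in the 4 lists, in the 3 comparisons; each point is 1 gene, the thick line is the median of the list and filled points passed the threshold. The members' median is 0.45 for RUNX1(41-214) minus control and 0.49 for Runx1KO minus control, and those of the other immediate early genes are 0.06 and 0.08.

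Outside these lists, the 5 genes most like the members were taken by the correlation, over the 9 arrays, of a gene's deviation from its group means with the mean deviation of the 10 members, among 6123 genes above the median signal. They were Cmc2 (r = 0.95), Cd52 (r = 0.92), Med31 (r = 0.91), Tmem167 (r = 0.90) and Sars (r = 0.89). Fos and Jun, with the widest deviations, weigh most in that mean. Over the 8 arrays without Runx1KO replicate 1, Cmc2, Cd52 and Sars were at 0.79, 0.80 and 0.80, and Med31 and Tmem167 at 0.25 and 0.23.

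Some markers of other marrow cells moved with the groups, and their part in the members' differences was not tested. The summed signal of 7 measured B cell markers was 1186 to 1528 in RUNX1(41-214), 4243 to 8825 in Runx1KO and 5725 to 6221 in control arrays. Ighm was at mean log2 signals of 9.44 in RUNX1(41-214), 12.49 in Runx1KO and 12.35 in control arrays, while Cd79b, Ms4a1 and Pax5 were no lower in RUNX1(41-214) than in control arrays (9.28, 5.54 and 4.62 against 9.20, 5.41 and 4.24). The sum of 6 T and NK cell markers was 194 to 361, 436 to 1033 and 1078 to 1386 in the same groups, while Cd3g was at 5.11 in RUNX1(41-214) against 4.61 in control arrays. The 8 megakaryocyte and platelet markers, led by Itga2b, summed to 9387 to 12212 in RUNX1(41-214), 6372 to 8067 in Runx1KO and 3322 to 4650 in control arrays, while Vwf was at 8.86 in RUNX1(41-214) against 9.59 in control arrays. The 7 mast cell and basophil markers, led by Cpa3, summed to 5077 to 6068, 2603 to 4004 and 482 to 1330. Cpa3 and Hdc were at mean log2 signals of 12.20 and 9.37 in RUNX1(41-214), 11.46 and 8.17 in Runx1KO and 8.43 and 5.57 in control arrays, while Fcer1a and Mcpt8 were lower in RUNX1(41-214) than in control arrays, at 5.87 and 6.85 against 7.16 and 7.41. Granulocyte, monocyte and erythroid sums overlapped between the groups, but single markers of each list moved both ways between RUNX1(41-214) and control arrays. Higher in RUNX1(41-214) were Elane (7.77 against 5.99), Adgre1 (7.43 against 6.25) and Slc4a1 (8.23 against 5.32). Lower were Ngp (5.99 against 6.77), Ccr2 (7.07 against 9.76) and Car1 (8.23 against 9.61). None of 8 stromal and endothelial markers was above the median gene. In these bulk samples, fewer cells of a type and less RNA per cell cannot be told apart.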

How the data were processed

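RNA of 9 samples of KSL cells was labelled with biotin by the Affymetrix 2-cycle procedure, per the labels' protocols, which amplifies the RNA before hybridisation. The deposited values were signal intensities on a linear scale, 1 per probe set, from 0.53 to 20215 over 22690 probe sets. How the authors summarised and scaled the probes is not given in the sources used here. From these values, 64 control probe sets were set aside, log2(signal + 16) was taken and the arrays were quantile normalized. Gene names came from the platform's probe set table: 20380 probe sets had 1 symbol, 691 several and 1555 none, and those without exactly 1 were left unnamed. The brightest probe set by mean represented each gene, which gave 12393 genes, with no filter on low signal. limma 3.58.1 in R 4.3.3 (lmFit, eBayes with a variance trend) fitted all 9 arrays with a mean per group, leaving 6 residual and 5.60 prior degrees of freedom, and p-values were two-sided and Benjamini-Hochberg adjusted over all genes of a comparison, with a threshold of 0.05. The procedure was tested on simulated data.

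All 10 members are named in every comparison. Of each other list and comparison, up to 4 genes past the threshold are named, in order of p; if none passed, the pair with the lowest p is named. Also named are the 5 genes most like the members and the brightest markers. The members and the lists were chosen with earlier results of these data known. The labels call the replicates biological without saying how many mice each holds, and precision is limited by their number, 3 a group. Alternatives were other offsets, scalings, probe set rules, fits and left-out arrays.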

Additional observations from a re-analysis of the deposited data

How the results depend on the processing

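Each member's difference was recomputed with offsets of 1 and 50, without quantile normalization, with median scaling, with the probe sets of a gene averaged or each tested, with genes below the median left out (which leaves Egr1, Ier2, Btg2, Dusp1 and Zfp36, with no value for the other 5 members), without a variance trend, with array weights, with only the 6 arrays compared, with a replicate block and without each array. Both arrays with the highest Gapdh 3′ to 5′ ratio, and both with the highest Hspa1b signal, were also left out, choices made after seeing the data. Of 645 recomputed differences, 602 kept their direction and side of the threshold, and the cause of the changes was not tested. In RUNX1(41-214) against control cells, 2 members passed, 4 did with only the 6 arrays compared (Junb and Jun added), 1 to 4 without 1 array (4 without Runx1KO replicate 1), and 0 without both Hspa1b-high arrays. In RUNX1(41-214) against Runx1KO cells 1 passed, 2 with array weights (Jun added, -2.69, adjusted p = 0.0345), 0 to 1 without 1 array and 0 without both Hspa1b-high arrays (Egr1 -1.13, adjusted p = 0.0932). In Runx1KO against control cells 0 passed under every setting run. Over all genes 43 passed in Runx1KO against control (9 with only the 6 arrays, 14 to 51 without 1 array), 531 in RUNX1(41-214) against control (295 to 613 without 1 array) and 168 in RUNX1(41-214) against Runx1KO (74 to 208 without 1 array, 371 with array weights).

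The differences that changed sign were those of members that had not passed in that comparison. Without both Hspa1b-high arrays they were, in Runx1KO against control, Egr1 (0.038), Jun (-0.12) and Nr4a1 (0.25), and in RUNX1(41-214) against Runx1KO, Dusp1 (0.11) and Nr4a1 (-0.11). Without both arrays of highest Gapdh ratio Egr1 was at 0.044 in Runx1KO against control. Against control, RUNX1(41-214) cells had Nr4a1 at -0.023 without quantile normalization and Atf3 at 0.056 with median scaling. Against Runx1KO they had Btg2 at 0.0094 with median scaling and at 0.0049 with averaged probe sets. Leaving out 1 array gave -0.17 to 0.14 for Egr1, -0.44 to 1.13 for Jun and -0.29 to 0.18 for Nr4a1 in Runx1KO against control. It gave -0.079 to 0.19 for Nr4a1 in RUNX1(41-214) against control, and -0.20 to 0.045 for Btg2, -0.28 to 0.11 for Dusp1 and -0.11 to 0.35 for Nr4a1 in RUNX1(41-214) against Runx1KO.

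Groups share replicate numbers, but same-numbered arrays deviated together only in part: their deviations correlated at -0.17 to 0.42, and for 6 of 18 pairs of an array and another group the closest array had the same number. With the replicate number as a block, 3 members passed in RUNX1(41-214) against control cells (Zfp36 added, 0.91, adjusted p = 0.0257), 1 in RUNX1(41-214) against Runx1KO and 0 in Runx1KO against control cells. Signal limits Atf3, which lay below the offset on every array: its difference in RUNX1(41-214) against Runx1KO ran from -1.10 to -0.14 over all settings.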
